A study of Mus musculus with 14 samples.

Results

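Small intestinal organoids with an epithelial deletion of *Rnaseh2b* (*Rnaseh2b* ΔIEC) were compared with WT organoids by mRNA sequencing. The comparison holds 6 of the 14 libraries in the expression table, 2 of *Rnaseh2b* ΔIEC and 4 of WT cultures, chosen by library name. The tested genes had a mean of 3.32 or more over all 14 libraries on the deposited log2 scale, which left 12804 of 18781 genes. The labels give WT as ATG16L1flox/flox_RNaseH2Bflox/flox without Cre and *Rnaseh2b* ΔIEC as RNaseH2Bflox/flox_VillinCre+/-. The groups therefore differ in the floxed *Atg16l1* allele and in Cre as well as in *Rnaseh2b*. All cultures were untreated, stem cell-derived organoids of mouse small intestine grown in IntestiCult medium, and the ages of the mice are not given in the labels. Villin-Cre recombines in intestinal epithelium, and these cultures hold no stroma, vessels or immune system to respond to it. The study set aside 2 further *Rnaseh2b* ΔIEC samples because of their read counts, and they are not analysed here.

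RNase H2 is a nuclear enzyme made of a catalytic A subunit and the accessory B and C subunits. It cuts out ribonucleotides that DNA polymerases build into DNA, and it degrades RNA in RNA:DNA hybrids. Cells without it replicate a ribonucleotide-laden genome, and DNA breaks, p53 activity and cytosolic DNA sensing are the consequences it is best known for. Organoids contain the cell types of the crypt and villus: dividing stem and progenitor cells, absorptive enterocytes, and secretory Paneth, goblet, enteroendocrine and tuft cells.

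Each library is named by its genotype and number. All 4 WT libraries were in sequencing lane 1 and both *Rnaseh2b* ΔIEC libraries in lane 2, so lane and genotype cannot be told apart within these 6 libraries. The other 8 libraries, 4 of *Atg16l1* ΔIEC (all lane 2) and 4 of *Atg16l1/Rnaseh2b* ΔIEC organoids (numbers 1 and 2 in lane 2, numbers 3 and 4 in lane 1), were used to estimate the spread and to show each gene in the other lane. By *Xist* and Y-linked genes, WT 1 and 2 and both *Rnaseh2b* ΔIEC libraries were male and WT 3 and 4 female, with *Xist* values of 7.70 and 7.69 in WT 1 and 2 and of 13.68 and 13.60 in WT 3 and 4. Libraries 1 and 2, and likewise 3 and 4, of a genotype deviated together, with r across genes of 0.71 and 0.72 in WT, so p-values measure the spread between libraries that may be technical, and the *Rnaseh2b* ΔIEC libraries may amount to 1 independent sample. The lowest correlation between any libraries was 0.991. On the first principal component, which held 40.3% of the variance, the *Rnaseh2b* ΔIEC libraries lay at -16.2 and -18.6. The male WT 1 and 2 lay at -3.1 and -1.0, and the female WT 3 and 4 at 10.9 and 10.6. The male *Atg16l1* ΔIEC 3 and 4 lay at -15.5 and -12.0, and the female 1 and 2 at -0.9 and 1.2. In *Atg16l1/Rnaseh2b* ΔIEC organoids the male libraries lay at 8.9 and 3.7 and the female ones at 16.9 and 15.1. Male libraries were thus lower in each genotype with both sexes, where sex and pair cannot be told apart. Epithelial markers were high throughout: *Epcam*, an epithelial adhesion molecule, had a mean of 14.74 in WT and 14.70 in *Rnaseh2b* ΔIEC organoids. Of 15 stromal, muscle, endothelial and glial markers and 10 immune markers only 2 of each were above the filter (*Pecam1* and *S100b*, *Itgam* and *Lyz2*), and none of these passed the test.

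The deleted gene fell in *Rnaseh2b* ΔIEC organoids, and neither of the other subunit genes passed the test. *Rnaseh2b* (chr14:62292589-62372992, GRCm38) had values of 8.47, 8.41, 8.58 and 8.70 in WT 1 to 4 and of 7.21 and 7.15 in the *Rnaseh2b* ΔIEC libraries. Each *Rnaseh2b* ΔIEC value was below all 12 others, since the double knockout libraries lay between 7.68 and 7.92. The log2 fold change was -1.36, with a 95% interval of -1.56 to -1.16, a 2.57-fold lower value, and -1.35 with lane as a covariate. *Rnaseh2a*, the catalytic subunit, was 10.31 to 10.40 in WT and 10.36 in both *Rnaseh2b* ΔIEC libraries, a difference of 0.01 with an interval of -0.10 to 0.12. *Rnaseh2c* differed by 0.13 (standard error 0.05, limma adjusted p = 0.063). The values in every library are shown in the plot of 12 genes by library, in which the groups of *Rnaseh2b* do not overlap.

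**Figure D1:**
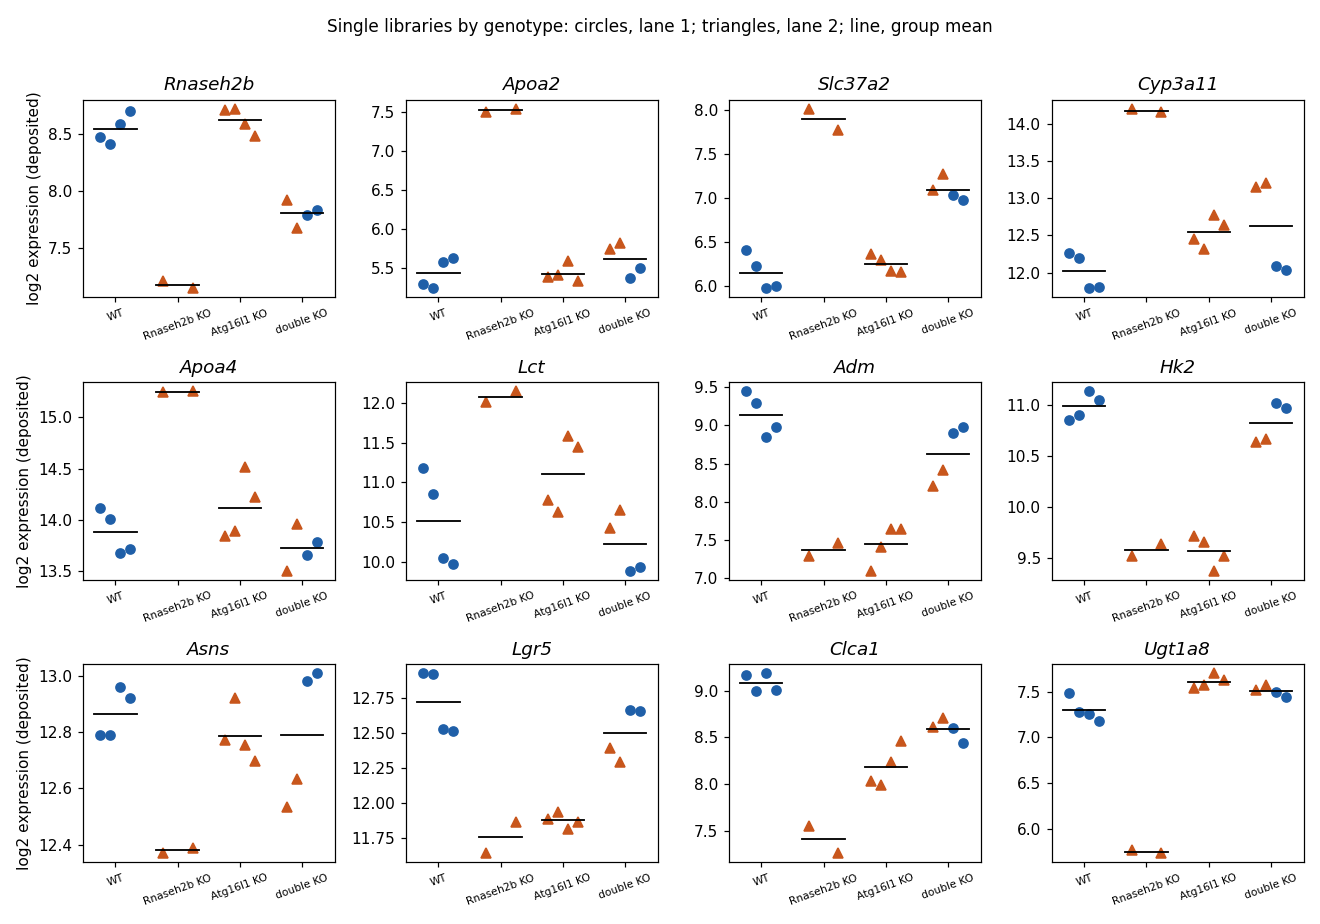
Deposited log2 expression (y axis) of 12 genes in the 14 libraries, grouped on the x axis by genotype; circles are lane 1, triangles lane 2 and horizontal lines group means. *Rnaseh2b* is lowest in both *Rnaseh2b* ΔIEC libraries (7.21 and 7.15), *Apoa2*, *Slc37a2*, *Cyp3a11*, *Apoa4* and *Lct* are highest there, and *Adm* and *Hk2* are low there and in the *Atg16l1* ΔIEC libraries.

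Against WT, 3424 genes passed a limma adjusted p of 0.05, 26.7% of those tested, with 1848 higher (14.4%) and 1576 lower (12.3%) in *Rnaseh2b* ΔIEC organoids. Most differences were small: 71 genes rose and 26 fell by more than 1 on the log2 scale, and the median over all genes was 0.00. The higher genes were 54.0% of those called, but 39.6% after scaling each library to the same linear total, which moved the median of all genes by -0.04. With the paired libraries as a random effect 728 genes (5.69%) kept the call, 428 higher and 300 lower, and with lane as a covariate 897 (7.01%) did, whereas 94 called genes had the opposite sign with lane. The lane term is estimated only from the *Atg16l1/Rnaseh2b* ΔIEC libraries, where sex and pair differ together with lane. Values given with lane, here and below, therefore also take out that difference. In 1615 of the 3424 called genes (12.6% of all tested genes), both *Rnaseh2b* ΔIEC libraries were outside all 12 others. The number of genes past the threshold was 1133 without *Rnaseh2b* ΔIEC 1 and 1239 without *Rnaseh2b* ΔIEC 2, against 2668 to 3287 without any of the WT libraries. These percentages are the background for every list that follows, and each comparison uses the same fit of all 14 libraries.

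**Figure D2:**
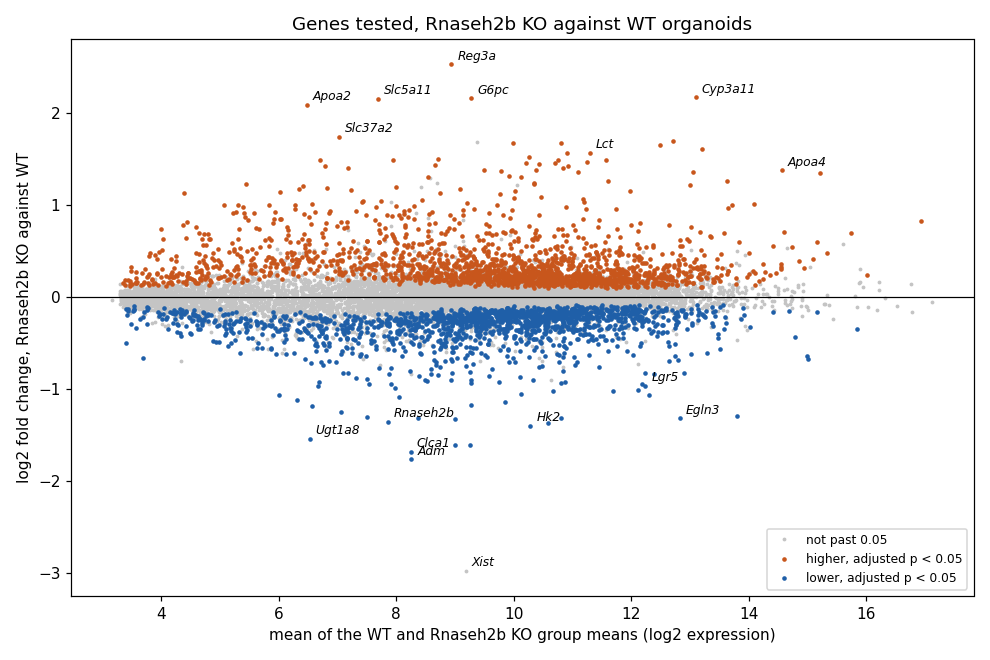
Log2 fold change of *Rnaseh2b* ΔIEC against WT organoids (y axis) by mean log2 expression (x axis) for 12804 genes, with the genes past a limma adjusted p of 0.05 coloured. 1848 coloured points lie above and 1576 below 0, and few lie beyond a change of 1 in either direction (71 and 26).

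Under the naming rule the 20 largest rises included the apolipoproteins *Apoa2* and *Apoc3*, the detoxifying cytochrome P450 genes *Cyp3a11*, *Cyp2b10* and *Cyp2c29*, the sugar-releasing enzyme genes *G6pc* and *Lct*, and the peptidase genes *Ace* and *Mme*. Of these 20, 19 had both *Rnaseh2b* ΔIEC libraries above all 12 others, 20 kept the call with paired libraries as a random effect and 11 with lane as a covariate, and 15 were also higher than in *Atg16l1* ΔIEC organoids, which shared their lane. The rule for rises and falls took only called genes whose *Rnaseh2b* ΔIEC libraries did not overlap WT, so separation from WT was fixed by the choice. *Apoa2* (chr1:171225054-171226379), a protein of high-density lipoprotein, was 5.30, 5.24, 5.58 and 5.62 in WT 1 to 4 and 7.50 and 7.54 in the *Rnaseh2b* ΔIEC libraries. The other 8 libraries lay between 5.34 and 5.82, so no library came near the *Rnaseh2b* ΔIEC values. *Apoa2* rose by 2.09 on the log2 scale (standard error 0.13, limma adjusted p = 2.8e-06), a 4.25-fold difference, and by 1.74 with lane as a covariate. *Cyp3a11*, which oxidises drugs and bile acids, was 11.79 to 12.27 in WT and 14.21 and 14.15 in *Rnaseh2b* ΔIEC organoids, with 13.15 and 13.21 in *Atg16l1/Rnaseh2b* ΔIEC 1 and 2 and 12.04 to 12.77 in the rest. *Reg3a*, an antibacterial lectin, had the largest rise, 2.53 (standard error 0.35), from 7.31 to 8.09 in WT to 9.96 and 10.45, and *Atg16l1* ΔIEC 3 reached 9.72. *Cyp3a11*, *Cyp2c29* and *Reg3a* belong to families of near-identical genes whose reads the counting may have split.

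Brush border hydrolases, the membrane enzymes that finish digestion on the enterocyte surface, rose in 10 of 16 tested members and fell in 0, with a median log2 fold change of 0.74 against 0.00 over all genes. *Lct*, the lactase gene, was 11.18, 10.86, 10.05 and 9.98 in WT 1 to 4 and 12.01 and 12.15 in *Rnaseh2b* ΔIEC organoids. The *Rnaseh2b* ΔIEC libraries lay above all others, but the male *Atg16l1* ΔIEC 3 and 4 followed at 11.58 and 11.44, above every WT library. *Ace*, the angiotensin-converting enzyme gene, was 9.94 to 10.02 in WT and 11.60 and 11.70 in *Rnaseh2b* ΔIEC organoids, a rise of 1.67 (standard error 0.30, limma adjusted p = 0.0019). The meprin genes *Mep1a* and *Mep1b* rose by 0.56 and 1.30, the aminopeptidase genes *Anpep* and *Enpep* by 0.39 and 0.95, the trehalase gene *Treh* by 1.22, and *Ggt1*, which splits glutathione, by 1.49. *Sis* (0.57), *Mgam* (0.07) and *Dpp4* (-0.09), the sucrase-isomaltase, maltase-glucoamylase and dipeptidyl peptidase genes, did not pass. Of the 10 calls, 4 remained with lane as a covariate and 7 with paired libraries as a random effect, and the number was 7 without *Rnaseh2b* ΔIEC 1 and 6 without *Rnaseh2b* ΔIEC 2.

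Lipid absorption genes rose in 17 of 19 tested members, with a median of 0.54. In 16 of the 17 both *Rnaseh2b* ΔIEC libraries exceeded all 12 others, beside 1615 of all 3424 called genes outside them in either direction. *Apoa4*, a chylomicron apolipoprotein, was 14.12, 14.01, 13.67 and 13.71 in WT 1 to 4 and 15.24 and 15.26 in *Rnaseh2b* ΔIEC organoids, a rise of 1.37 (standard error 0.18, limma adjusted p = 0.00025). The groups did not overlap, and the highest other library was *Atg16l1* ΔIEC 3 at 14.52. The fatty acid-binding protein genes *Fabp1* and *Fabp2* rose by 1.34 and 1.26, *Apoc3*, which slows lipoprotein clearance, by 1.56, and *Apoa1* by 1.22. The chylomicron assembly genes *Apob* and *Mttp* rose by 0.69 and 0.54, and the triglyceride synthesis genes *Mogat2*, *Dgat1* and *Dgat2* by 0.83, 0.41 and 0.36. Members not past the threshold were the cholesterol importer gene *Npc1l1*, at 0.04, and the fatty acid receptor gene *Cd36*, at 0.40. With lane as a covariate 5 of the 17 calls were kept and the median was 0.48, and the number of calls was 7 without *Rnaseh2b* ΔIEC 1 and 5 without *Rnaseh2b* ΔIEC 2.

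Nutrient transporter genes rose in 12 of 16 members and fell in 0 (median 0.62). The fructose transporter gene *Slc2a5* was 9.51 to 9.96 in WT and 11.20 and 11.12 in *Rnaseh2b* ΔIEC organoids, a rise of 1.44. The peptide transporter gene *Slc15a1* rose by 1.43, from between 7.89 and 8.02 to 9.33 and 9.45, and the neutral amino acid transporter gene *Slc6a19* by 1.40. Both sugar transporter genes of the glucose route, *Slc5a1* on the luminal and *Slc2a2* on the basal side, also rose, by 0.55 and 0.95, and the bile acid exporter genes *Slc51a* and *Slc51b* by 0.94 and 0.60. The ileal bile acid importer gene *Slc10a2* (-0.26) and the cystine transporter subunit gene *Slc3a1* (0.04) did not pass. With lane 3 of these calls remained and with paired libraries 5, and 5 were past the threshold without either one of the *Rnaseh2b* ΔIEC libraries.

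Fatty acid oxidation and PPAR target genes rose in 11 of 17 tested members (median 0.31). They included *Cpt1a*, which brings fatty acids into mitochondria (0.49), the peroxisomal gene *Ehhadh* (0.51), the receptor gene *Ppara* itself (0.34) and *Creb3l3*, a transcription factor of lipid metabolism (1.35). *Angptl4*, a known PPAR target (0.03), did not pass. No member kept its call with lane as a covariate, although the median was then 0.27, and 4 and 1 were past the threshold without *Rnaseh2b* ΔIEC 1 and 2.

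Against *Atg16l1* ΔIEC organoids, where lane is the same and the *Atg16l1* deletion differs, 872 genes passed (6.81%), 556 higher and 316 lower in *Rnaseh2b* ΔIEC organoids, and 613 of them had also passed in the same direction against WT. Both comparisons use the same *Rnaseh2b* ΔIEC libraries. In this one the medians were 0.62 for brush border hydrolases (5 of 16 higher), 0.33 for lipid absorption (5 of 19), 0.49 for transporters (4 of 16) and 0.25 for fatty acid oxidation (5 of 17), with no member lower in any of these lists. For the same lists in the same order, *Atg16l1* ΔIEC organoids had medians against WT of 0.23, 0.23, 0.31 and 0.01 and double knockout organoids medians of -0.16, -0.11, -0.04 and -0.15, and these comparisons share the WT libraries. The double knockout, which lacks *Rnaseh2b* too, thus had no higher median than WT in any of these lists. In bulk RNA, a different number of cells of a type and a different amount of RNA per cell cannot be told apart, here and for the other cell types described.

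**Figure D3:**
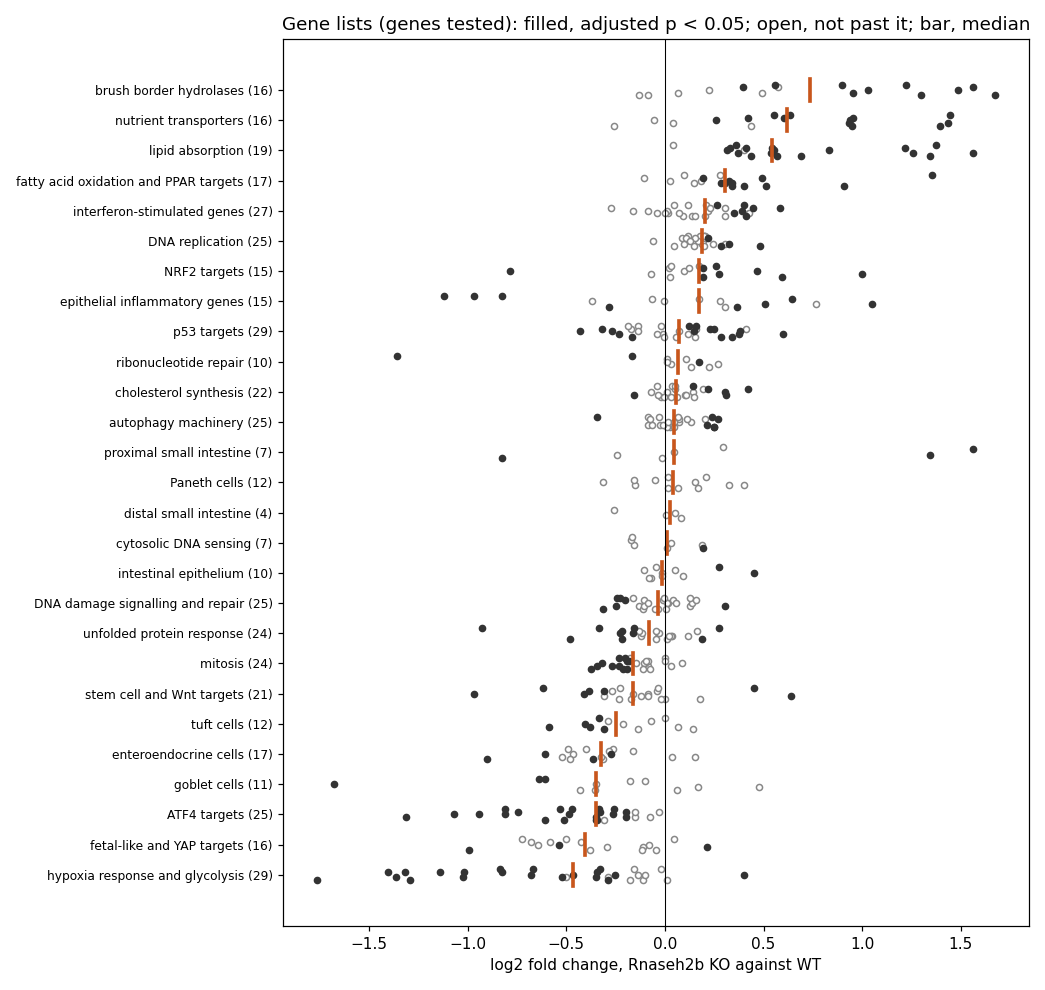
Log2 fold change of *Rnaseh2b* ΔIEC against WT organoids (axis of values) for each tested member of the gene lists, 1 point per gene, with a bar at each list's median. The absorptive lists lie to the positive side (medians 0.74, 0.54, 0.62 and 0.31), and the hypoxia and ATF4 lists to the negative side (medians -0.46 and -0.35).

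The largest falls included targets of the hypoxia-inducible factors, which adapt metabolism to low oxygen (*Adm*, *Hk2*, *Pfkfb3*, *Egln3*, *Ero1l* and *Ankrd37*), the goblet cell gene *Clca1*, and *Anxa3*, a phospholipid-binding protein gene, and *Stbd1*, a glycogen-binding protein gene, each at -1.61. Of the 20 largest falls, 11 had both *Rnaseh2b* ΔIEC libraries below all 12 others, 17 kept the call with paired libraries as a random effect and 11 with lane as a covariate, and 4 were also lower than in *Atg16l1* ΔIEC organoids. Among all 3424 called genes, 1615 had both *Rnaseh2b* ΔIEC libraries outside all 12 others. *Nt5e*, which makes adenosine, and the potassium channel gene *Kcnh2* fell by 1.25 and 1.09 but both were at 0.13 with lane. Of 29 tested hypoxia response and glycolysis genes, 19 fell and 1 rose (median -0.46), and 14 kept their call with paired libraries as a random effect and 9 with lane as a covariate. *Adm*, a vasodilator peptide gene, was 9.45, 9.29, 8.85 and 8.98 in WT 1 to 4 and 7.29 and 7.47 in *Rnaseh2b* ΔIEC organoids. The groups did not overlap, but the *Atg16l1* ΔIEC libraries were as low, at 7.10 to 7.65. *Adm* fell by 1.76 on the log2 scale (standard error 0.22, limma adjusted p = 0.00021), and by 1.14 with lane.

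*Hk2*, the hexokinase that traps glucose, and *Pfkfb3*, which makes the activator of phosphofructokinase, fell by 1.40 and 1.37 on the log2 scale. *Hk2* was 10.85 to 11.14 in WT, 9.52 and 9.64 in *Rnaseh2b* ΔIEC, 9.38 to 9.72 in *Atg16l1* ΔIEC and 10.64 to 11.02 in *Atg16l1/Rnaseh2b* ΔIEC organoids. The glucose transporter gene *Slc2a1* fell by 1.02, from between 12.19 and 12.22 to 11.16 and 11.21. The oxygen sensor genes *Egln1* and *Egln3* fell by 0.46 and 1.32, the collagen prolyl hydroxylase genes *P4ha1* and *P4ha2* by 1.02 and 0.67, the histone demethylase gene *Kdm3a* by 0.83 and the vascular growth factor gene *Vegfa* by 0.83. The later glycolytic enzymes *Ldha* (0.01), *Eno1* (-0.02), *Tpi1* (-0.10) and *Pgk1* (-0.16) did not pass, and *Pfkfb4* was the member that rose, by 0.40. Against *Atg16l1* ΔIEC organoids none of the 29 passed, with a median of -0.12. Against the shared WT libraries the median was -0.34 for *Atg16l1* ΔIEC and -0.19 for double knockout organoids, and that of *Rnaseh2b* ΔIEC organoids was -0.21 with lane as a covariate. With either *Rnaseh2b* ΔIEC library left out 13 and 15 members of the list passed.

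The promoters of the 3 genes with the largest falls in this list are shown because hypoxia-inducible factors bind a short core, ACGTG or GCGTG. RefSeq windows (GRCm38.p6) of 250 bases before a gene's start were searched on both strands, and matches are in capitals, so that a match on the other strand reads CACGT or CACGC and overlapping matches form 1 run.
*Adm* (chr7:110627407-110627656, plus strand): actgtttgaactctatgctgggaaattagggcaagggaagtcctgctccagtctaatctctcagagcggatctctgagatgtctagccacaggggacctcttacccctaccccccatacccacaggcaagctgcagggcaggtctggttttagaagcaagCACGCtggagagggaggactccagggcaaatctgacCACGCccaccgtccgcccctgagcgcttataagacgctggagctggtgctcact
*Hk2* (chr6:82774455-82774704, minus strand): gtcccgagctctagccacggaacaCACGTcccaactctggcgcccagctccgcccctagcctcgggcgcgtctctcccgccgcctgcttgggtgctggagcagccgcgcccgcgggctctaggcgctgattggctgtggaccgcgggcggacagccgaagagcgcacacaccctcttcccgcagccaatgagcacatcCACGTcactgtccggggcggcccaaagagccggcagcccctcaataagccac
*Pfkfb3* (chr2:11502091-11502340, minus strand): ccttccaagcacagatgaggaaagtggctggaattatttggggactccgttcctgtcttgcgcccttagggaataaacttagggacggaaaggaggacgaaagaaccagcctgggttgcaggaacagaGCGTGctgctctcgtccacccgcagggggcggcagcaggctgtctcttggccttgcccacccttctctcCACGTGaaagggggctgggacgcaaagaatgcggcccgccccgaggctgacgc

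The windows of *Adm* and *Hk2* held 2 matches each and that of *Pfkfb3* 3, where CACGTG counts once on each strand. A second window of *Pfkfb3*, at another start, held 1 match and is not printed. Of the 26 tested list members with a window, 25 (96.2%) held a match in at least 1 window, against 61.2% of 10043 tested genes and 41.5% of 27025 genes with a window. By window the shares were 82.1% of 39, 55.1% of 12877 and 38.6% of 32851, and the 17 lower members with a window all held a match. The list was assembled from known targets, some genes have more than 1 window, and a match is no evidence of binding.

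Targets of the stress factor ATF4, which drives amino acid supply and tRNA charging, were lower in all 25 tested members, and 20 of them fell (median -0.35). *Asns*, asparagine synthetase, was 12.79, 12.79, 12.96 and 12.92 in WT 1 to 4 and 12.37 and 12.39 in *Rnaseh2b* ΔIEC organoids, below the 12.53 to 13.01 of all other libraries. Its fall of 0.49 (standard error 0.12, limma adjusted p = 0.0085) was small next to that of *Stc2*, a secreted glycoprotein gene, of 1.31. The serine synthesis genes *Psat1*, *Psph* and *Phgdh* fell by 0.53, 0.35 and 0.33, the cystine transporter gene *Slc7a11* by 0.81 (with lane, a log2 difference of 0.02, of opposite sign), and *Mthfd2* of mitochondrial folate metabolism by 0.51. The tRNA synthetase genes *Cars*, *Sars*, *Aars*, *Wars*, *Mars* and *Nars* all fell, by between 0.20 and 0.47. In 12 of the 20 both *Rnaseh2b* ΔIEC libraries lay below all 12 others, beside 1615 of all 3424 called genes outside them in either direction. With lane as a covariate 1 call was left (*Ddit4*, -1.39) and the median was -0.07, with paired libraries 9 were left, and without *Rnaseh2b* ΔIEC 1 or 2 there were 8 and 4. Against *Atg16l1* ΔIEC organoids 6 of 25 were lower (median -0.27), among them *Psat1*, at -0.58 (limma adjusted p = 0.014).

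The unfolded protein response, a neighbouring stress pathway of the endoplasmic reticulum, had 2 members higher and 8 lower among 24 (median -0.08). *Ddit3*, the death-related factor CHOP, was 10.48, 10.48, 9.95 and 9.93 in WT and 9.31 and 9.26 in *Rnaseh2b* ΔIEC organoids, a fall of 0.93 (standard error 0.15). The sensor genes *Ern1*, *Ern2* and *Atf6* fell by 0.33, 0.48 and 0.22, whereas the chaperone gene *Hspa5* (-0.14) and the factor gene *Xbp1* (-0.05) did not pass. The number of calls was 2 without *Rnaseh2b* ΔIEC 1 and 4 without *Rnaseh2b* ΔIEC 2, and with lane 1 call of the 10 was kept.

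Among stem cell and Wnt target genes 5 of 21 fell and 2 rose (median -0.16), so 33.3% were called, beside 26.7% of all genes. *Lgr5*, the receptor that marks crypt base stem cells, was 12.93, 12.92, 12.53 and 12.52 in WT 1 to 4 and 11.65 and 11.87 in *Rnaseh2b* ΔIEC organoids. *Lgr5* fell by 0.97 (standard error 0.13, limma adjusted p = 0.00032), and by 0.65 with lane, but the *Atg16l1* ΔIEC libraries were equally low at 11.82 to 11.94. *Prom1*, a membrane protein of stem and progenitor cells, fell by 0.31 and was 13.18 to 13.20 in WT, 12.89 and 12.88 in *Rnaseh2b* ΔIEC and 13.18 to 13.26 in *Atg16l1* ΔIEC organoids. *Rgmb*, *Smoc2* and *Lrig1*, all crypt base genes, fell by 0.62, 0.41 and 0.38. *Msi1*, an RNA-binding protein of progenitors, rose by 0.45, and *Notum*, which inactivates Wnt ligands, by 0.64. The stem cell genes *Olfm4* (-0.16) and *Ascl2* (-0.24) did not pass, with standard errors of 0.34 and 0.11. Of the 7 calls, 5 were kept with lane and 4 with paired libraries, and against *Atg16l1* ΔIEC organoids 3 members were higher and 1 lower (median 0.15).

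All calls in the secretory lists were falls, in 41.7% of tuft, 27.3% of goblet and 23.5% of enteroendocrine cell genes. Of all genes, 12.3% were called as lower and 26.7% in either direction. None of the 12 Paneth cell genes passed (median 0.04): the lysozyme gene *Lyz1* was at -0.16, *Mmp7*, which activates defensins, at 0.21 and *Defa24* at 0.01, and standard errors of up to 0.25 leave these genes imprecise. Goblet cell genes fell in 3 of 11 members and rose in 0 (median -0.35, or -0.13 without *Rnaseh2b* ΔIEC 2 and -0.23 without WT 3 or WT 4). *Clca1*, a secreted mucus protease, was 8.99 to 9.19 in the WT libraries and 7.55 and 7.26 in *Rnaseh2b* ΔIEC organoids, a fall of 1.68 (standard error 0.13, limma adjusted p = 6.5e-06). All 12 other libraries were above both values, the nearest being *Atg16l1* ΔIEC 2 at 7.99, and *Clca1* was lower than in *Atg16l1* ΔIEC organoids, with a log2 difference of -0.77 (limma adjusted p = 0.0032). *Fcgbp* and *Tff3*, further mucus components, fell by 0.64 and 0.61, while the mucin gene *Muc2* (-0.35) and the goblet cell factor gene *Spdef* (-0.18) did not pass.

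Enteroendocrine genes fell in 4 of 17 members and rose in 0 (median -0.32). *Ghrl*, the ghrelin gene, was 9.28 to 9.44 in WT and 8.42 and 8.53 in *Rnaseh2b* ΔIEC organoids, a fall of 0.90, below all other libraries. The peptide YY gene *Pyy* fell by 0.61, and the lineage factor genes *Nkx2-2* and *Isl1* by 0.37 and 0.27, whereas *Chga* (-0.32), *Sst* (-0.49) and *Gip* (0.15) did not pass. Tuft cell genes fell in 5 of 12 members (median -0.25): the actin-binding *Avil* by 0.59, the kinase gene *Dclk1* by 0.41, the ion channel gene *Trpm5* by 0.38, *Rgs13* by 0.34 and *Sh2d6* by 0.31. The tuft cell factor gene *Pou2f3* did not pass (-0.21). Of the calls, 2 goblet, 1 enteroendocrine and 3 tuft cell genes were kept with lane, and without either *Rnaseh2b* ΔIEC library there were 1 to 2 calls in each of these lists. Fetal-like and YAP target genes, which mark a regenerating epithelium, had 1 rise and 2 falls in 16 members and a median of -0.40 that was 0.06 with lane and -0.26 and -0.24 without WT 3 and WT 4, with *Il1rn*, an interleukin-1 inhibitor gene, at -0.99 and *Clu* at -0.11, and no member passed without either one of the *Rnaseh2b* ΔIEC libraries.

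Mitosis genes fell in 11 of 24 members and rose in 0 (median -0.16), by small amounts. *Nusap1*, a spindle protein gene, was 11.13 to 11.19 in WT and 10.87 and 10.82 in *Rnaseh2b* ΔIEC organoids, a fall of 0.32 (standard error 0.04, limma adjusted p = 0.00032). The kinetochore genes *Cenpe*, *Cenpf* and *Ndc80* fell by 0.38, 0.35 and 0.23, the spindle genes *Tpx2* and *Kif11* by 0.27 and 0.18, and *Top2a* by 0.21. *Cdk1* (-0.00), *Ccnb1* (0.03) and *Mki67* (-0.11), genes of mitotic entry and proliferation, did not pass. With lane 9 of the 11 calls were kept and the median was -0.22, but 3 were kept with paired libraries, and 4 members passed without *Rnaseh2b* ΔIEC 1 and 4 without *Rnaseh2b* ΔIEC 2.

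DNA replication genes leaned the other way in sign: 24 of 25 had positive fold changes (median 0.19). Of the 25, 4 rose and 0 fell, a share near the 14.4% of all genes called as higher. It was below the 26.7% called in either direction, so the calls do not set this list apart from all genes. The 4 were *Ccne1* and *Cdt1*, which start S phase (0.48 and 0.22), the ribonucleotide reductase gene *Rrm2*, which makes deoxyribonucleotides (0.32), and the histone chaperone gene *Chaf1b* (0.28). *Rrm2* was 11.22, 11.14, 11.14 and 11.13 in WT and 11.51 and 11.46 in *Rnaseh2b* ΔIEC organoids. The MCM helicase genes *Mcm2* to *Mcm7* were at 0.15 to 0.24, and none of the 6 passed. The replication median was 0.01 with lane as a covariate, with 1 call kept, 2 and 3 members passed without *Rnaseh2b* ΔIEC 1 and 2, and against the same WT libraries it was 0.08 for *Atg16l1* ΔIEC and 0.20 for double knockout organoids.

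**Figure D4:**
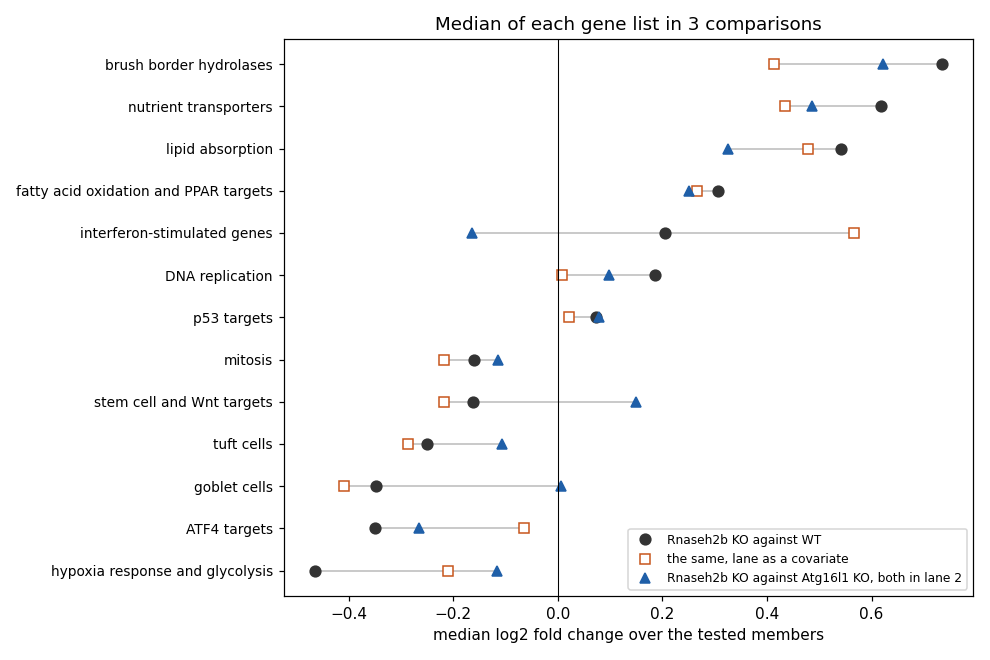
Median log2 fold change of each gene list (axis of values) for *Rnaseh2b* ΔIEC against WT organoids, for the same difference with lane as a covariate, and for *Rnaseh2b* ΔIEC against *Atg16l1* ΔIEC organoids, both in lane 2. The absorptive lists are above 0 in all 3 (for brush border hydrolases 0.74, 0.41 and 0.62), whereas the hypoxia median goes from -0.46 to -0.21 and -0.12. The lane term comes only from the double knockout libraries, where sex and pair differ with lane.

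The p53 target list had calls in both directions: 10 of 29 members rose and 5 fell (median 0.07). *Bax*, which permeabilises mitochondria in apoptosis, was 10.49 to 10.57 in WT and 10.94 and 10.87 in *Rnaseh2b* ΔIEC organoids, a rise of 0.38 (standard error 0.05, limma adjusted p = 0.00048). *Phlda3*, an AKT inhibitor gene, was 8.95 to 9.07 in WT, 9.39 and 9.32 in *Rnaseh2b* ΔIEC, 8.83 to 8.94 in *Atg16l1* ΔIEC and 9.36 to 9.65 in *Atg16l1/Rnaseh2b* ΔIEC organoids. All 6 libraries lacking *Rnaseh2b* were thus above the 8 that have it. *Trp53inp1*, the death receptor gene *Fas* and *Ccng1* rose by 0.60, 0.38 and 0.28, and *Ccng1* was at -0.00 with lane. The stress genes *Gdf15* and *Sesn2* and the repair gene *Ddb2* fell by 0.43, 0.32 and 0.27. *Cdkn1a*, the cell cycle inhibitor p21 (-0.01), *Trp53* itself (-0.03) and *Mdm2* (0.16, limma adjusted p = 0.054) did not pass. With lane 1 call (*Bax*) was kept, with paired libraries 2, and 3 and 4 members passed without *Rnaseh2b* ΔIEC 1 and 2.

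Among genes that act beside RNase H2 on ribonucleotides and breaks, 3 of 10 ribonucleotide repair and 6 of 25 DNA damage genes were called, against 26.7% of all genes. Of 10 ribonucleotide repair genes, *Rnaseh2b* and *Top1*, the topoisomerase that cuts at leftover ribonucleotides, fell (-1.36 and -0.17), and *Rnaseh1*, the other cellular RNase H, rose by 0.17. *Samhd1*, *Fen1* and *Lig1*, a dNTP hydrolase and flap repair genes, were at 0.27, 0.22 and 0.03 and did not pass. DNA damage signalling and repair genes fell in 5 of 25 members and rose in 1 (median -0.04): the kinase genes *Atm* and *Chek1* by 0.32 and 0.23, *Polb* and *Lig3* of base excision repair by 0.25 and 0.24 and *Rad50* by 0.20, with *Xpa* at 0.30. All but *Rad50* of the 5 falls were kept with lane as a covariate. Without *Rnaseh2b* ΔIEC 1 and 2, the calls in this list were 2 and 1, and *Rnaseh2b* was the single ribonucleotide repair gene past the threshold in both cases.

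Interferon-stimulated genes rose in 7 of 27 members and fell in 0 (median 0.20), beside the 26.7% of all genes that passed and the 14.4% that passed as higher. The risen members included the antigen processing genes *Psmb9*, *Psmb8* and *Tap1*, which increased by 0.58, 0.39 and 0.45, and *Oas1a* and *Ifit2*, antiviral effectors, at 0.40 and 0.26. *Psmb9* was 6.94, 6.76, 6.62 and 6.61 in WT and 7.26 and 7.37 in *Rnaseh2b* ΔIEC organoids, with *Atg16l1* ΔIEC 3 at 7.42. *Isg15*, a ubiquitin-like effector gene, was 4.69 to 4.82 in WT and 5.01 and 4.93 in *Rnaseh2b* ΔIEC organoids (0.23, standard error 0.22), and the factor gene *Irf7* was at 0.43 (standard error 0.28). The list's median was 0.57 with lane as a covariate, 0.25 for *Atg16l1* ΔIEC and 0.16 for double knockout organoids against WT, and -0.16 against *Atg16l1* ΔIEC organoids, where no member passed. Without *Rnaseh2b* ΔIEC 1 and 2 there were 1 and 0 calls. Of 7 tested cytosolic DNA sensing genes 1 rose, the kinase gene *Tbk1* (0.19, and -0.02 with lane), and the sensor gene *Cgas* was at 0.03 and its partner *Tmem173*, which encodes STING, at 0.19.

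A view that keeps both lanes on each side sets the 6 libraries lacking *Rnaseh2b* (*Rnaseh2b* ΔIEC and *Atg16l1/Rnaseh2b* ΔIEC) against the 8 libraries that have it. In 128 called genes (1.0% of those tested) the 6 values were all on 1 side of the 8, 75 higher and 53 lower, and 41 of these kept their call with lane and 31 with paired libraries. These genes were picked by their values, so they carry no test of their own here. *Slc37a2* (chr9:37227585-37255738), a sugar phosphate exchanger gene, was 5.98 to 6.41 in WT, 6.16 to 6.36 in *Atg16l1* ΔIEC, 8.01 and 7.77 in *Rnaseh2b* ΔIEC and 6.97 to 7.27 in *Atg16l1/Rnaseh2b* ΔIEC organoids. *S100g*, a calcium-binding protein of duodenal enterocytes, was 8.33 to 8.70 in WT, 9.84 and 9.51 in *Rnaseh2b* ΔIEC and 8.94 to 9.05 in the double knockout organoids. *Mcam*, a cell adhesion gene, was at 6.53 to 6.78 in WT, 7.79 and 7.84 in *Rnaseh2b* ΔIEC and 7.42 to 7.85 in the double knockout organoids.

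Separation of this kind also held for *Sult6b2*, *Ptp4a3* and *Zfp385a*, with log2 fold changes in *Rnaseh2b* ΔIEC organoids of 1.48, 0.94 and 0.89, and for the cyclin gene *Ccnd1*, at 0.45. It held as well for *Ano3*, *Inka2* (*Fam212b*) and *Ddit4l*, which the study assessed in these organoids as p53-regulated genes. They were named here with earlier results of these data known. *Ano3*, of the anoctamin family, was 5.23, 5.24, 5.36 and 5.51 in WT 1 to 4, 6.31 and 6.37 in *Rnaseh2b* ΔIEC, 5.24 to 5.40 in *Atg16l1* ΔIEC and 6.13 to 6.65 in the double knockout organoids, and its rise kept the call with lane as a covariate (1.22) and with paired libraries. *Inka2* and *Ddit4l* rose by 0.52 and 0.40 and kept the call in neither fit. On the lower side were *Naip5*, a sensor of bacterial flagellin from a family of near-identical genes (-0.92), the positional factor gene *Hoxb9* (-0.67) and *Pyy*. *Hoxb9* was also lower in *Atg16l1* ΔIEC than in WT organoids (-0.52), at 3.43 to 3.60, and lay near the filter of 3.32. *Naip5* was 11.18 to 11.54 in WT and 10.35 and 10.47 in *Rnaseh2b* ΔIEC organoids. It was 10.22 and 10.30 in double knockout libraries 1 and 2, but 11.04 and 11.02 in 3 and 4. With lane as a covariate the *Naip5* difference was -0.15 and the call was not kept. Of the lists, p53 targets had 3 such members (*Phlda3*, *Ccng1* and *Zmat3*), and ribonucleotide repair (*Rnaseh2b*), replication (*Rrm2*), stem cell (*Msi1*), enteroendocrine (*Pyy*), cholesterol (*Stard4*) and circadian clock (*Per3*, a list chosen after values were seen) genes 1 each. No member of the brush border, lipid absorption, transporter, fatty acid oxidation, hypoxia, ATF4, interferon or mitosis lists was among them. Transporter genes outside that list, such as *Slc37a2*, were. The lists without such a member named here had 16 to 29 tested members each. As 1.0% of all tested genes separated in this way, holding none, or 1, is near that share.

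Of the remaining pathways, NRF2 targets, which protect against oxidants, rose in 7 of 15 members and fell in 1 (median 0.17). The glutathione transferase gene *Gstm1* was 13.07 to 13.40 in WT and 14.12 and 14.31 in *Rnaseh2b* ΔIEC organoids (limma adjusted p = 0.00066), but 14.33 in *Atg16l1* ΔIEC 3. The iron storage gene *Fth1* rose by 0.59 and the heme oxygenase gene *Hmox1* fell by 0.78. Cholesterol synthesis genes rose in 5 of 22 members and fell in 1 (median 0.05), with *Hsd17b7* at 0.42. Autophagy genes rose in 5 of 25 and fell in 1 (median 0.05), and *Map1lc3b*, whose product coats autophagosomes, rose by 0.25 while *Atg2b* fell by 0.34. Without *Rnaseh2b* ΔIEC 1 and 2, the numbers of calls were 3 and 3 for NRF2 targets and 2 and 4 for cholesterol synthesis. *Atg16l1*, the other gene floxed in WT, was 9.43 to 9.54 in WT and 9.52 and 9.53 in *Rnaseh2b* ΔIEC organoids.

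Epithelial inflammatory genes split evenly, 4 up and 4 down among 15 (median 0.17). *Nos2*, the inducible nitric oxide synthase gene, was 6.64, 6.67, 7.09 and 7.06 in WT and 5.70 and 5.79 in *Rnaseh2b* ΔIEC organoids, below all others, a fall of 1.12. *Tnfaip3*, an NF-κB inhibitor gene, and *Duox2*, which makes hydrogen peroxide, fell by 0.83 and 0.97. *Il18*, an epithelial cytokine gene, was 7.68 to 8.26 in WT and 8.90 and 9.05 in *Rnaseh2b* ΔIEC organoids, a rise of 1.05. For *Nos2* and *Tnfaip3* the call remained with lane as a covariate (-1.21 and -0.80), and without *Rnaseh2b* ΔIEC 1 and 2 the list had 5 and 3 calls. Of 7 proximal intestinal genes 2 rose and 1 fell, and none of 4 distal genes passed. Among 10 epithelial markers *Krt20* and *Vil1*, which mark differentiated cells, rose by 0.45 and 0.27. None of 5 sex-linked genes passed, with WT holding both sexes.

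Because the groups also differ by label in the *Atg16l1* locus, genes around both floxed loci were counted. Within 5 Mb of *Atg16l1* on chromosome 1, 28 of 61 tested genes passed (45.9%), 19 higher and 9 lower, against 26.7% of all genes, and 10 of 60 (16.7%) passed within 5 Mb of *Rnaseh2b* on chromosome 14. With lane 13 of the 61 were kept (21.3%, against 7.01%) and with paired libraries 6 (9.84%, against 5.69%). The share was 48.6% within 2 Mb and 39.6% within 10 Mb of *Atg16l1*, and by whole chromosome it ranged from 20.4% to 31.9%. *Ugt1a8* (chr1:88087813-88219004), a glucuronidating enzyme gene, was 7.48, 7.28, 7.25 and 7.18 in WT, 5.77 and 5.74 in *Rnaseh2b* ΔIEC and 7.45 to 7.70 in the other 8 libraries. All 12 libraries whose labels name the floxed *Atg16l1* allele were above both *Rnaseh2b* ΔIEC libraries. *Ugt1a8* fell by 1.54 (standard error 0.08, limma adjusted p = 3.3e-07), by 1.61 with lane, and its neighbour *Ugt1a7c* rose by 0.65. These genes overlap and share exons, so how reads were divided between them is uncertain.

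The intestinal phosphatase genes *Akp3* and *Alpi*, a further near-identical pair in this region, rose by 1.13 and 1.03. *Akp3* was 8.97, 8.69, 7.47 and 7.57 in WT 1 to 4, the first pair male and the second female by *Xist* and Y-linked genes. It was 9.41 and 9.21 in *Rnaseh2b* ΔIEC, 8.02 to 8.16 in *Atg16l1* ΔIEC and 9.58 to 10.50 in the double knockout organoids. The 6 libraries lacking *Rnaseh2b* were thus all above the other 8, and *Akp3* kept its call with lane as a covariate (1.82). *Akp3* did not pass with sex as a covariate (limma adjusted p = 0.064) or with paired libraries (0.094), nor did *Alpi* with paired libraries (0.076). *Per2*, a clock gene, fell by 0.70, from between 10.34 and 10.43 in WT to 9.63 and 9.71. Genotype at *Rnaseh2b*, origin of the chromosome 1 region, Cre and lane cannot be told apart for these genes within the 6 libraries.

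**Figure D5:**
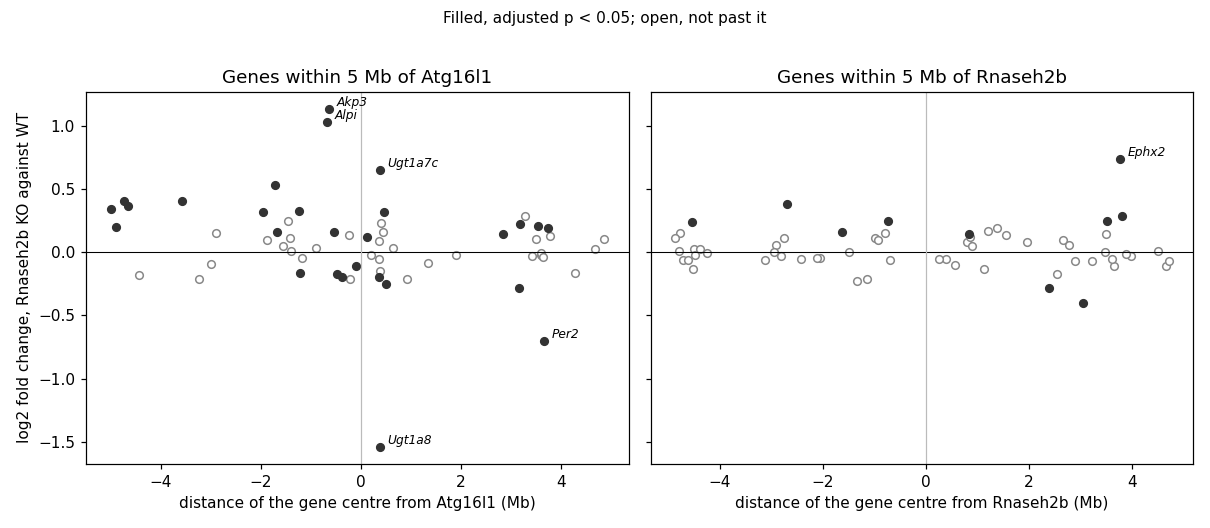
Log2 fold change of *Rnaseh2b* ΔIEC against WT organoids (y axis) by distance in Mb from *Atg16l1* and from *Rnaseh2b* (x axis), for tested genes within 5 Mb, with genes past a limma adjusted p of 0.05 coloured. Around *Atg16l1* 28 of 61 genes are coloured, with *Ugt1a8* lowest (-1.54), and around *Rnaseh2b* 10 of 60. *Atg16l1* and *Rnaseh2b* themselves are not drawn.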

How the data were processed

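Total RNA of 14 organoid cultures was sequenced as stranded mRNA, 1 library per culture. By the authors' methods, adapters were removed with cutadapt, reads were placed on GRCm38 by TopHat2 and gene counts came from HTSeq, with DESeq2 for testing (versions not given in the sources used here). The authors deposited log2 values for 18781 genes whose transformation is not named. The median SD between libraries was 0.025 for genes with means of 1 to 2 and 0.151 for means of 6 to 7, which understates the differences of low genes. Read depth is unknown, so a count model could not be used. All columns were mapped to samples by library name (0 left unmapped), and 99.7% of identifiers matched a gene symbol.

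The deposited log2 values were tested with limma 3.58.1 in R 4.3.3, with 1 mean per genotype over all 14 libraries, a mean trend, a filter of 3.32 (10 on the linear scale) and Benjamini-Hochberg adjustment at 0.05. The fit was tested on simulated data with independent libraries. These lack the correlation within pairs, so the rate of false calls with paired libraries was not tested. Confidence intervals are at 95% (limma). *Rnaseh2b* ΔIEC and *Atg16l1* ΔIEC libraries were compared in the same fit. Lists are described by counts and medians, with no set test. Named genes were *Atg16l1*, the RNase H2 genes and genes the study names, the 20 largest rises and falls whose libraries do not overlap WT (1 predicted gene left out), up to 5 called members per direction of each list, and further list members as examples. The members, lists and naming rule were chosen with earlier results of these data known. Alternatives were pseudocounts of 1 and 5, no filter and a filter of 50, median centring, total scaling, a fit of only the compared groups, lane or sex as a covariate, a block for the replicate number, paired libraries as a random effect or averaged, no trend, and leaving out each library. Promoter windows came from RefSeq. Tables and figures were made with Python 3.11.15, pandas 2.3.3 and matplotlib 3.10.9.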

Additional observations from a re-analysis of the deposited data

Results flagged for a closer look

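In 12 of the 159 named genes tested for it, 1 of the 4 WT libraries stood far from the other 3, its gap to the nearest being a large share of the range of the group (chance gives such a gap in about 1 of 20 groups). WT 1 was the library apart for *Rrm2* (share 0.948, high), *Gclm* (0.923, high), *Aldh1a1* (0.882, high), *Krt20* (0.860, high) and *Sh2d6* (0.833, low). WT 2 was apart for *Atg16l1* (0.890, high), *Lig3* (0.857, low) and *Tnfrsf10b* (0.840, high). WT 3 was apart for *Sel1l* (0.862, high), *Polb* (0.857, high) and *Atg2a* (0.846, low), and WT 4 for *Atm* (0.830, low). The distances were small in most of these genes. *Atg16l1* was 9.54 in WT 2 and 9.43 to 9.44 in the other WT libraries, *Rrm2* was 11.22 in WT 1 and 11.13 to 11.14 in the others, and *Aldh1a1*, the retinal dehydrogenase gene, was 11.10 in WT 1 and 10.72 to 10.76 in the others. Without WT 1, *Rrm2* and *Krt20* had log2 fold changes of 0.34 and 0.48, against 0.32 and 0.45 with it, and both still passed the limma threshold.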

How the results depend on the processing

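The number of genes past the threshold stayed within 1.5 times of 3424 with other pseudocounts, other filters, median centring, total scaling, the 2 groups alone, the sex covariate and no trend. With lane as a covariate, which is estimated only from the *Atg16l1/Rnaseh2b* ΔIEC libraries where it also differs with sex and pair, 1504 genes passed (792 higher, 712 lower). With paired libraries as a random effect (correlation 0.645) 728 passed (428 and 300). With pairs averaged 0, 0 and 0 passed (limma, 2103 at an unadjusted p under 0.05), and *Rnaseh2b* itself, still at -1.36, did not pass. In that fit *Rnaseh2b* ΔIEC organoids are 1 value. Same-numbered WT and *Rnaseh2b* ΔIEC libraries had r of -0.24 and 0.12. The 2 *Rnaseh2b* ΔIEC libraries deviate from their mean by equal and opposite amounts, so these values cannot show whether the numbers pair them. With the replicate number as a block 2888 genes passed, with medians of 0.12 for replication, -0.19 for mitosis, 0.30 for interferon-stimulated, 0.042 for cholesterol and 0.017 for epithelial genes. Lane moved the medians to 0.0038 for ribonucleotide repair, 0.022 for p53, -0.11 for DNA damage, 0.0078 for replication, -0.22 for mitosis, 0.57 for interferon-stimulated, -0.018 for DNA sensing, 0.41 for brush border, 0.43 for transporter, -0.22 for stem cell, -0.17 for Paneth, -0.15 for enteroendocrine, 0.059 for fetal-like, -0.21 for hypoxia, -0.049 for unfolded protein, -0.065 for ATF4, -0.018 for cholesterol, 0.064 for NRF2, 0.018 for inflammatory, 0.94 for proximal and 0.053 for epithelial genes. Total scaling moved them to 0.031 (ribonucleotide repair), 0.036 (p53), -0.073 (DNA damage), 0.15 (replication), -0.20 (mitosis), -0.027 (DNA sensing), -0.20 (stem cell), -0.50 (hypoxia), -0.12 (unfolded protein), 0.018 (cholesterol), 0.14 (NRF2), 0.010 (autophagy) and -0.054 (epithelial). The sex covariate gave 0.13 (p53), 0.60 (brush border), -0.067 (stem cell), -0.095 (fetal-like), -0.27 (ATF4), 0.062 (autophagy) and 0.11 (inflammatory), and the stricter filter 0.26 (interferon), -0.074 (DNA sensing), -0.34 (tuft) and 0.29 (inflammatory). Leaving out 1 library gave counts of 1133 to 3287 (668 to 1792 higher, 462 to 1495 lower), lowest without *Rnaseh2b* ΔIEC 1 or 2, and medians of 0.054 to 0.14 (p53), -0.068 to -0.015 (DNA damage), -0.17 to -0.14 (mitosis), -0.012 to 0.025 (DNA sensing), 0.61 to 0.86 (brush border), -0.20 to -0.12 (stem cell), -0.019 to 0.13 (Paneth), -0.47 to -0.35 (hypoxia), 0.052 to 0.084 (cholesterol), 0.13 to 0.20 (NRF2), 0.041 to 0.074 (autophagy) and 0.12 to 0.22 (inflammatory). Single genes turned sign as follows: with lane *Rnaseh2a* -0.075, *Nt5e* 0.13, *Kcnh2* 0.13, *Ccng1* -0.0015, *Tbk1* -0.018, *Ccn2* 0.094, *Slc7a11* 0.021, *Cybrd1* 0.032 and *Cdkn1a* 0.20, with the block *Rnaseh2a* -0.027 and *Cdkn1a* 0.054, and with total scaling *Rnaseh2a* -0.025. With 1 library left out *Trp53* ranged from -0.076 to 0.015 and *Cdkn1a* from -0.037 to 0.013. The causes were not tested. Of 152 called named genes, 62 kept the call with lane, 76 with paired libraries, 124 with the block, 146 with the sex covariate, 82 without *Rnaseh2b* ΔIEC 1 and 80 without *Rnaseh2b* ΔIEC 2.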

Other observations

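4 further gene groups were chosen after values were seen, so their counts are a description. Of 21 xenobiotic metabolism genes, 10 rose and 0 fell in *Rnaseh2b* ΔIEC against WT organoids (median log2 fold change 0.37). They included the cytochrome P450 genes *Cyp2b10*, *Cyp2c29* and *Cyp3a25*, at 1.69, 1.60 and 1.26, and the glutathione transferase gene *Gsta1*, at 1.15. With lane as a covariate 5 calls were kept and with paired libraries 7, and 7 members passed without either one of the *Rnaseh2b* ΔIEC libraries. Vitamin A handling genes rose in 5 of 8 tested members (median 0.85): the carotene-cleaving *Bco1* by 1.67, the retinol-binding *Rbp2* by 1.64, the retinal dehydrogenase gene *Aldh1a1* by 1.49, *Rdh7* by 1.07 and the retinol esterifying *Lrat* by 0.34. With lane 1 of these calls was kept.

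Circadian clock genes fell in 4 of 15 tested members and rose in 1 (median -0.15), so 33.3% were called, beside 26.7% of all genes. *Per2* and *Per3*, repressors of the clock, fell by 0.70 and 0.33, *Bhlhe40* by 0.51 and *Ciart* by 0.33, and the output factor gene *Hlf* rose by 0.74. The times at which cultures were collected are not given in the labels. Of 5 Reg lectin genes, *Reg3a* rose, and *Reg1* (1.24) and *Reg3b* (0.77) did not pass (limma adjusted p = 0.15 and 0.19).

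*Nnt* (chr13:119335448-119408997, GRCm38), a mitochondrial transhydrogenase gene, was also singled out after its values were seen. It was 12.56 to 12.68 in WT, 11.62 and 11.59 in *Rnaseh2b* ΔIEC organoids, 12.50 and 12.42 in *Atg16l1* ΔIEC 1 and 2, 11.38 and 11.39 in *Atg16l1* ΔIEC 3 and 4, and 12.09 to 12.31 in *Atg16l1/Rnaseh2b* ΔIEC organoids. The libraries thus fell into separate levels that did not follow the *Rnaseh2b* genotype. Against WT *Nnt* fell by 1.01 on the log2 scale (standard error 0.26, limma adjusted p = 0.013), and the difference was -0.86 with lane (limma adjusted p = 0.18).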
